A study of Mus musculus with 12 samples.

Results

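Tumors treated with ADU-S100 were compared with tumors treated with cyto-IL-15 over all expressed genes. The comparison used the 6 tumors that the labels give as treated with one agent alone, 3 per group, of the 12 tumors of the series, which also holds 3 tumors given HBSS (the vehicle) and 3 given both agents. All 12 were TRAMP-C2 tumors, grown from a prostate cancer cell line of transgenic mice under the skin of the right flank of male C57BL/6J mice aged 6 to 8 weeks. Each library is labelled with a tumor ID, and what the numbers and letters of the IDs stand for is not given in the sources used here, so that p-values measure the spread between these tumors. When a tumor had reached about 200 mm3, the cyto-IL-15 group received 2 intratumoral doses of 10 µg, on days 0 and 4, and the ADU-S100 group 3 doses of 50 µg, on days 0, 2 and 4. The groups therefore differed in the agent, in the number of injections and in the diluent, since the methods give HBSS for ADU-S100 and PBS for cyto-IL-15, and these cannot be told apart. Tumors were taken on day 6, divided into parts and frozen. Total RNA of dissociated tumor tissue was sequenced, so the tumor cells, the stroma and the leukocytes were measured together. In such bulk samples, fewer cells of a type and less RNA per cell cannot be told apart.

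ADU-S100 is a synthetic cyclic dinucleotide that switches on STING, a membrane protein that relays the alarm raised by DNA in the cytosol. STING leads, through the kinase TBK1 and the transcription factor IRF3, to interferon-β, which acts on neighboring cells through JAK kinases to switch on antiviral interferon-stimulated genes, and it also activates NF-κB and inflammatory cytokines. Cyto-IL-15 is interleukin-15 joined to a lipid-bearing peptide that anchors it in cell membranes, and this cytokine keeps natural killer (NK) cells and memory CD8+ T cells alive and dividing. The comparison therefore sets an innate, interferon-inducing agent beside a lymphocyte growth factor in the same tumor.

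Total counts of the 6 libraries ranged from 48772204 to 103700199, and between 26629 and 32878 genes had at least 1 count. The library of cyto-IL-15 tumor 13 stood apart. Its log2 CPM correlated with the other 5 libraries at Pearson's r of 0.899 to 0.917, where these correlated with one another at 0.959 to 0.984, and Yap1, a coactivator of the Hippo pathway, took 3.32% of its counts. Its lymphocyte genes were low, with a mean T cell list level of 1.26 log2(CPM + 0.5) against 3.46 and 3.57 in tumors 9R and 20LL, while its mast cell, basophil and eosinophil list was the highest of its group, at 2.21 against 0.95 and 0.99. Results below are for all 6 tumors unless stated, and many are therefore given again without tumor 13. Of the markers of the labelled tumor type, the epithelial keratin Krt18 was between 0.0560 and 5.92 CPM and Pbsn was at 0 in all 6 tumors. Pbsn encodes probasin, whose promoter drives the oncogene in the transgenic mice from which the cell line came. The mesenchymal filament gene Vim was between 2404 and 5118 CPM.

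Of the genes that passed the test, 11 were on a list of antiviral interferon-stimulated genes, and the others included the regulator Irf7, the proliferin Prl2c2 and the monocyte receptor Cd300e. By edgeR's quasi-likelihood test, 16 of 18708 tested genes were differentially expressed genes (DEGs, meaning an adjusted p under 0.05 with a log2 fold change beyond 1 in either direction), which is 0.0855% of the genes tested, and all 16 were higher with ADU-S100. No gene was a DEG in the lower direction, although 750 lower and 718 higher genes had an unadjusted p under 0.05, and the median log2 fold change of all tested genes was -0.04. For lower genes, DESeq2 on the same tumors called 59 and limma's voom, with tumors weighted by quality, called 43. Without tumor 13, edgeR called 206 DEGs, the same 16 among them. Of these, 143 were higher (0.727% of 19660 tested genes) and 63 lower (0.32%). No gene was called when any one of the other 5 tumors was left out instead, with 702 to 2232 genes at an unadjusted p under 0.05. With all 6 tumors, 6 genes were called with RLE size factors, 4 with library totals alone, 4 with all 12 tumors in one fit and 73 without a filter on low counts. Calls that name no tool below are those of edgeR. Of the 206 DEGs found without tumor 13, DESeq2 called 127 with all 6 tumors, Mgl2, Cd209a, Cdkn1a, Gzmb, Cxcl11 and Tnf among them. The biological coefficient of variation, the spread between tumors of a group beyond counting error, was 0.422 with tumor 13 and 0.266 without it.

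**Figure D1:**
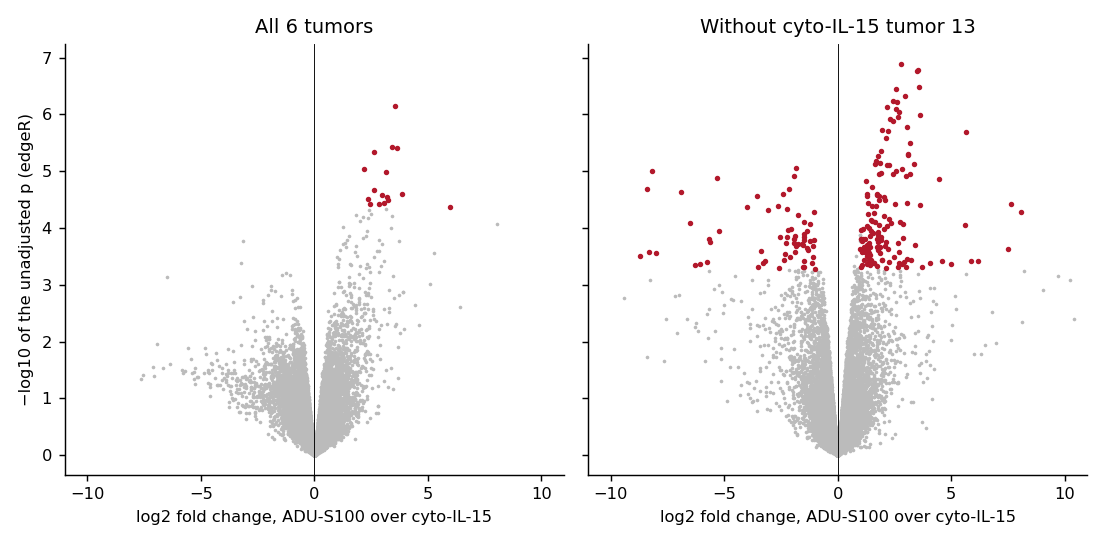
Each point is a gene, with its log2 fold change (ADU-S100 over cyto-IL-15) on the horizontal axis and −log10 of the unadjusted p of edgeR's quasi-likelihood test on the vertical axis, for all 6 tumors on the left and without cyto-IL-15 tumor 13 on the right. Red points are DEGs, 16 higher and 0 lower on the left, and 143 higher and 63 lower on the right.

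The promoters of several of these genes share a short sequence. The interferon-stimulated response element (ISRE), through which type I interferon turns on its target genes, holds 2 GAAA repeats spaced by 2 bases, so GAAANNGAAA (N is any base, overlapping matches allowed) was searched on both strands in windows of 300 bases, from 250 before to 50 after each RefSeq transcription start of build GRCm38.p6. Windows were found for 9 of the 16 DEGs, and 5 of these genes held the sequence (Isg15, Ifit1, Oas1a, Oas1g and Oas3), whereas 3.99% of all 27025 genes with a window did. The 5 windows are shown because they belong to DEGs of the antiviral group and let the spacing of the repeats be compared. Each is written 5′ to 3′ on the strand of its gene, with matches on either strand in capitals.
Isg15, chr4:156200769-156201068, minus strand: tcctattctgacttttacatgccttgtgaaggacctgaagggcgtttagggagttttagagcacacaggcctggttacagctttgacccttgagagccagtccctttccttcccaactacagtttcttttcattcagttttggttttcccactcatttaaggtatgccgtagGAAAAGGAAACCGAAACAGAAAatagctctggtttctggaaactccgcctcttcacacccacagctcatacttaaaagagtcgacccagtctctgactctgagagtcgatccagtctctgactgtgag
Ifit1, chr19:34640639-34640938, plus strand: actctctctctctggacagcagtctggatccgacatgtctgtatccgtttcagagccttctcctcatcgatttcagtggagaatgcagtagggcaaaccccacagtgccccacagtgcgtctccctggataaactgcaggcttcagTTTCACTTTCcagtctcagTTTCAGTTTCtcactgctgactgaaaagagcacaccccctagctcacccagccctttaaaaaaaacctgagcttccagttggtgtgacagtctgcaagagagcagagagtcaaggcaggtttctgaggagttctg
Oas1a, chr5:120907476-120907775, minus strand: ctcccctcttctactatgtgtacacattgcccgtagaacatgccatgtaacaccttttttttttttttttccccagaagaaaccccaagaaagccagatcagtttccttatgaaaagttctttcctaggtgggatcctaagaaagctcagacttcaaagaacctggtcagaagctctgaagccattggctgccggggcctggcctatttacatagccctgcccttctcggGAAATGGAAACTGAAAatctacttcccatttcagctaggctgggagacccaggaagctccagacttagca
Oas1g, chr5:120887564-120887863, minus strand: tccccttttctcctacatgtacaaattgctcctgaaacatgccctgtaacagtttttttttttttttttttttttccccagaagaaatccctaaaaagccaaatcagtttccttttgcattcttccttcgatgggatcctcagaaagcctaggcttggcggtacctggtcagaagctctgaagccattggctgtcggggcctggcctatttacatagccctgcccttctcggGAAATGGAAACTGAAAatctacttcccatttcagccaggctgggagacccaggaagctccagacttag
Oas3, chr5:120777610-120777909, minus strand: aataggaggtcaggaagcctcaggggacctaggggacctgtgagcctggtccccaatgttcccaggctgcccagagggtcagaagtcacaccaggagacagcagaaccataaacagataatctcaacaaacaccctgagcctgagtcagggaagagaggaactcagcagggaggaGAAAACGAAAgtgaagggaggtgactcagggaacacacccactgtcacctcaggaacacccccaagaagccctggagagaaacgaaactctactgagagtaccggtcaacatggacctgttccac
Isg15 held 3 overlapping matches, Ifit1, Oas1a and Oas1g 2 each and Oas3 1. The Oas1a and Oas1g windows, which belong to neighboring paralogs, were identical at 207 of 298 bases when one was shifted as a whole against the other. No gaps were allowed, so bases past an insertion or deletion can count as differences. Irf7, Ifi44, Xaf1 and Cd300e had a window without these letters, and the other 7 DEGs had no window in the table. Of the antiviral list described below, 21 of 45 genes with a window held the sequence. It was in 34 of 101 genes called higher without tumor 13 and in 3 of 39 called lower. The gamma-activated sequence TTCNNNGAA, another interferon-response motif, reads the same on both strands and was in 2 of the 9 DEG windows, those of Oas1a and Cd300e, and in 9.55% of all genes. These are matches of letters, and binding was not measured.

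The oligoadenylate synthetases make the messenger that activates RNase L against viral RNA, and 4 genes of this family, which lie in one cluster on chromosome 5 (Oas2 at chr5:120730333-120749853, Oas3 at chr5:120753098-120777661, Oas1g at chr5:120876142-120887613 and Oas1a at chr5:120896256-120907521, build GRCm38), were DEGs. Per-tumor levels are in normalized CPM, the counts of a gene scaled to a common library size, in the order of tumors 9R, 13 and 20LL for cyto-IL-15 and 17LL, 18R and 22LR for ADU-S100. Oas2 was at 5.96, 4.87 and 4.82 CPM in the cyto-IL-15 tumors and at 58.9, 54.5 and 74.2 CPM in the ADU-S100 tumors (log2 fold change 3.55, standard error 0.20, adjusted p = 0.0134 by edgeR, n = 3 tumors per group). The lowest ADU-S100 tumor was far above the highest cyto-IL-15 tumor, and tumor 13 lay within its own group. Oas3 ran from 8.73, 11.8 and 9.45 CPM to 46.8, 74.7 and 98.1 CPM (log2 fold change 2.83, standard error 0.30, adjusted p = 0.0481 by edgeR). For Oas1a the levels were 15.7, 8.59 and 13.7 CPM against 67.2, 82.3 and 88.5 CPM, and for Oas1g 4.60, 2.10 and 3.09 CPM against 27.5, 29.2 and 36.8 CPM, with log2 fold changes of 2.62 and 3.23 (adjusted p = 0.0481 for both by edgeR). Oas1a and Oas1g are close paralogs whose reads may be shared, so each value is uncertain by itself.

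Isg15, a ubiquitin-like protein that is joined to other proteins in the antiviral state, was at 11, 14.4 and 10.9 CPM with cyto-IL-15 and at 118, 108 and 171 CPM with ADU-S100 (log2 fold change 3.41, standard error 0.25, adjusted p = 0.0216 by edgeR). Usp18, the protease that removes Isg15 and restrains the interferon receptor, was at 7.79, 8.06 and 6.26 CPM and 30.3, 39.6 and 53.8 CPM. Its fitted level was 5.44-fold higher with ADU-S100 (adjusted p = 0.0481 by edgeR). The groups did not overlap for either gene, and in both tumor 13 was the highest of its group. Ifit1, which binds viral RNA that lacks a host cap, was at 10.3, 8.16 and 9.22 CPM and 83.8, 57.6 and 109 CPM (log2 fold change 3.14, standard error 0.27, adjusted p = 0.0319 by edgeR), where the paralogs of the Ifit cluster may share reads. Ifi44, an interferon-induced protein of the cytosol, had 8.60, 3.68 and 7.13 CPM and 80.7, 79.0 and 129.5 CPM (log2 fold change 3.87, standard error 0.38, adjusted p = 0.0481 by edgeR). In both genes all 3 ADU-S100 tumors were above all 3 cyto-IL-15 tumors, and 22LR was the highest tumor. Rtp4, an interferon-induced chaperone of receptors, rose by 3.05 on the log2 scale (0.32 standard error) and Ifi27l2a, a small mitochondrial membrane protein, by 3.19 (0.32), both at adjusted p = 0.0481 by edgeR. Xaf1, which opposes the inhibitors of apoptosis, was at 20.1, 15.8 and 16.9 CPM and 83.1, 68.7 and 89.7 CPM (log2 fold change 2.16, standard error 0.18, adjusted p = 0.0319 by edgeR).

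Irf7, a transcription factor by which cells answering interferon make more of it, and Dhx58, which encodes the RNA sensor LGP2, were the regulators among the DEGs. Irf7 was at 21.2, 15.1 and 28.7 CPM with cyto-IL-15 and 231, 282 and 318 CPM with ADU-S100 (log2 fold change 3.65, standard error 0.27, adjusted p = 0.0216 by edgeR), and Dhx58 at 15.3, 9.83 and 16.3 CPM and 59.7, 71.3 and 87.2 CPM (log2 fold change 2.36, standard error 0.24, adjusted p = 0.0481 by edgeR). Tumor 13 had the lowest level of both in its group, and the groups did not overlap. Ly6a, the surface protein Sca-1, was at 45.4, 35.1 and 56.1 CPM and 243, 368 and 476 CPM (log2 fold change 2.96, standard error 0.29, adjusted p = 0.0481 by edgeR). Outside the interferon response as usually listed, the DEGs held Prl2c2, a proliferin of the prolactin family, and Cd300e, an activating receptor of monocytes. Prl2c2 was at 7.25, 8.53 and 8.60 CPM in the cyto-IL-15 group and 51.5, 41.7 and 58.6 CPM in the ADU-S100 group (log2 fold change 2.61, standard error 0.20, adjusted p = 0.0216 by edgeR), and it has near-identical paralogs. One of these, Prl2c3, was at 0.115, 17.3 and 0.0897 CPM and 2.65, 1.53 and 2.62 CPM, so its value in tumor 13 lay above all ADU-S100 tumors, and without tumor 13 its log2 fold change was 4.48 (adjusted p = 0.00616 by edgeR). Cd300e rested on few reads in one group, with 9, 2 and 6 counts in the cyto-IL-15 tumors and 320, 739 and 582 in the ADU-S100 tumors. It had the smallest margin to the threshold of the 16 (log2 fold change 5.98, adjusted p = 0.0496 by edgeR), and just outside lay Chil3, a chitinase-like protein of myeloid cells, at adjusted p = 0.0510.

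**Figure D2:**
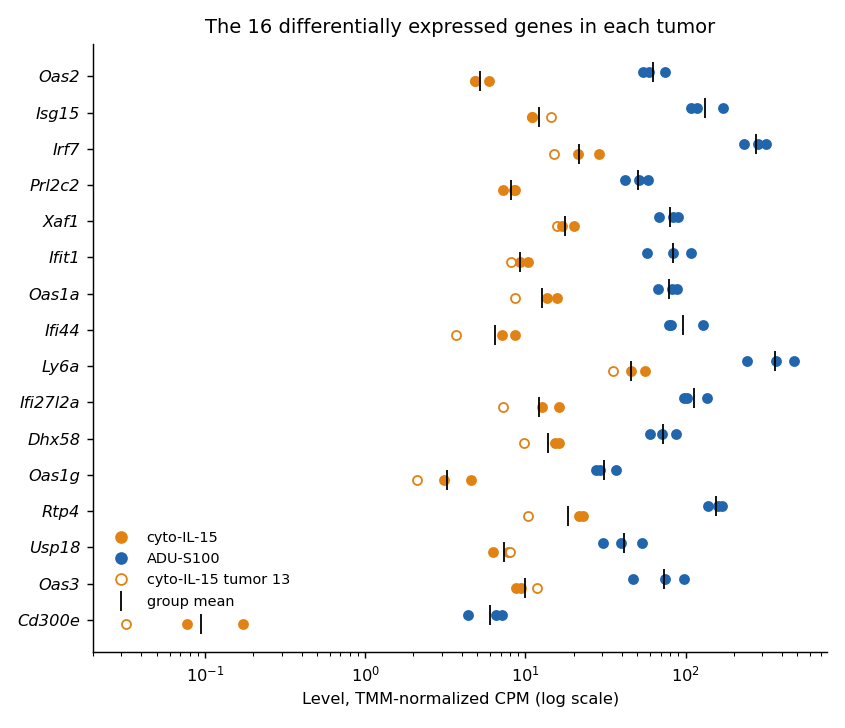
Level of each of the 16 DEGs in each tumor, in TMM-normalized CPM on a log axis, for cyto-IL-15 (orange) and ADU-S100 (blue), with tumor 13 as an open point and group means as vertical ticks (n = 3 tumors per group). In every gene the 3 ADU-S100 tumors lie to the right of the 3 cyto-IL-15 tumors, and for Isg15, Usp18 and Oas3 tumor 13 is the highest of its group.

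The difference extended over most of the antiviral list. Of its 56 tested genes, 11 rose and none fell, and 50 had all 3 ADU-S100 tumors above all 3 cyto-IL-15 tumors, which was the case for 8.63% of all tested genes. Its median log2 fold change was 1.53, against -0.04 for all tested genes, and without tumor 13 it was 1.75 with 34 genes higher. The mean level of the list was 4.30, 3.97 and 4.33 log2(CPM + 0.5) in the cyto-IL-15 tumors and 5.83, 5.94 and 6.38 in the ADU-S100 tumors. Ifitm1 was the one member with a log2 fold change below 0 with all tumors (-1.18), which turned to 1.48 without tumor 13, and Slfn4, a Schlafen gene of myeloid cells with close paralogs, had the highest (5.27, adjusted p = 0.114 by edgeR), both singled out by rank after the values were seen.

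Interferon-inducible GTPases attack the membranes around intracellular pathogens, and 19 of 20 had ADU-S100 tumors above all cyto-IL-15 tumors, against 8.63% of all tested genes, with a median of 1.63. Of these GTPases edgeR called none (17 higher and 0 lower at an unadjusted p under 0.05) and DESeq2 12 higher. Irgm1, which regulates this group, was at 72.2, 38.7 and 65.8 CPM and 186, 210.3 and 246 CPM (log2 fold change 1.83, standard error 0.25, adjusted p = 0.0999 by edgeR), and without tumor 13 it passed (log2 fold change 1.64, adjusted p = 0.00500 by edgeR). Igtp and Iigp1, 2 further members, had log2 fold changes of 1.97 and 1.62 with all 6 tumors and 1.73 and 1.47 without tumor 13, where both were DEGs. In that fit 8 of the 20 GTPases rose, against 0.727% of all tested genes. Among sensors of nucleic acid, 15 of 21 had non-overlapping higher levels with ADU-S100 and 1 lower (against 8.63% and 8.67% of all tested genes), with a median of 1.18. Zbp1, which senses Z-form nucleic acid and can start necroptosis, was at 34.1, 18.9 and 30.5 CPM and 112, 118 and 143 CPM (log2 fold change 2.13, standard error 0.24, adjusted p = 0.0541 by edgeR), just short of the threshold. The DNA-binding PYHIN genes Ifi207 and Ifi213 had log2 fold changes of 1.57 and 2.26 and, like Zbp1, rose without tumor 13.

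The RNA of the pathway that carries the STING signal had a median near that of all genes. Of 19 tested genes of the cGAS-STING list, Irf7 was the DEG and the median log2 fold change was 0.04. Tmem173, which encodes STING, was at 81.8, 83.2 and 86.9 CPM and 82.7, 96.3 and 80.4 CPM, with overlapping groups and a log2 fold change of 0.01 (adjusted p = 0.981 by edgeR, singled out because it encodes the target of ADU-S100). Tbk1, the kinase below STING, was at 54.3, 50.7 and 59.1 CPM and 62.6, 62.4 and 66.9 CPM (log2 fold change 0.20, standard error 0.13), and Cgas, the DNA sensor above it, at 22.1, 11 and 20.7 CPM and 28.6, 28.6 and 25.8 CPM (log2 fold change 0.60, standard error 0.28). Their groups did not overlap, but neither passed the test (adjusted p = 0.668 and 0.615 by edgeR). The interferon regulatory factors and signaling genes had a median of 0.09, with Irf7 the DEG, 14 genes above 0 and 10 below. Without tumor 13 edgeR called 3 of them higher and 1 lower (against 0.727% and 0.32% of all tested genes). There Stat2 and Irf9 rose in addition (log2 fold changes 1.70 and 1.24), and Irf4 fell (-1.77, adjusted p = 0.0280 by edgeR).

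The interferon genes themselves had few counts on day 6. Of 21 listed interferon genes, Ifng alone passed the filter on low counts, at 1.08, 0.451 and 1.54 CPM and 1.89, 2.19 and 2.07 CPM (log2 fold change 0.98, standard error 0.47, adjusted p = 0.616 by edgeR). Ifnb1, the interferon-β gene, had 5, 0 and 0 counts in the cyto-IL-15 tumors and 10, 11 and 26 in the ADU-S100 tumors, too few to be tested with all 6 tumors. In CPM, tumor 9R lay close under ADU-S100 tumor 18R, at a distance within counting error, and without tumor 13, where it was tested, its adjusted p was 0.536 by edgeR.

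The 2 arms of antigen presentation had median log2 fold changes of opposite sign. MHC class I presents peptides of the cell's own proteins to CD8+ T cells, and 19 of its 24 tested genes had non-overlapping higher levels with ADU-S100, against 8.63% of all tested genes, and the median was 0.94. In this list edgeR called none (3 higher and 0 lower at an unadjusted p under 0.05) and DESeq2 1 higher. Tap1, the peptide transporter, was at 143, 44.2 and 161 CPM and 197, 335 and 278 CPM (log2 fold change 1.19, standard error 0.46, adjusted p = 0.615 by edgeR), and its level in tumor 13 was the lowest of the 6, below that in the other cyto-IL-15 tumors. H2-T22, a non-classical class I gene with near-identical relatives, was at 120.0, 57.8 and 167 CPM and 282, 314 and 358 CPM, and rose without tumor 13 (log2 fold change 1.16, adjusted p = 0.0300 by edgeR). The mean level of the class I list was 7.40, 5.73 and 7.56 log2(CPM + 0.5) with cyto-IL-15 and 7.83, 8.16 and 8.08 with ADU-S100. Without tumor 13 the median was 0.55 and 2 class I genes rose, against 0.727% of all tested genes.

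MHC class II presents ingested antigen to CD4+ T cells and is carried by dendritic cells, macrophages and B cells. Over its 16 tested genes the median was -1.26, and with all 6 tumors edgeR called none (0 higher and 6 lower at an unadjusted p under 0.05) and DESeq2 3 lower, H2-Aa, H2-Eb1 and Cd74. H2-Aa was at 951, 83.8 and 1086 CPM with cyto-IL-15 and 75.0, 183 and 69.1 CPM with ADU-S100 (log2 fold change -2.72, standard error 0.90, adjusted p = 0.615 by edgeR), and H2-Eb1 at 1205, 93.3 and 1489 CPM and 87.5, 229.6 and 88.0 CPM. Cd74, the invariant chain that escorts class II molecules, was at 2528, 274 and 3142 CPM and 200.2, 580.1 and 219 CPM. In these 3 genes tumors 9R and 20LL were high and tumor 13 was among the ADU-S100 tumors, so the groups overlapped. Without tumor 13, 4 class II genes fell, H2-Aa (log2 fold change -3.22, adjusted p = 0.0413 by edgeR), H2-Eb1 (-3.31, adjusted p = 0.0428), H2-DMa (-1.76, adjusted p = 0.0158) and H2-Ob (-2.21, adjusted p = 0.0223), and the median was -1.68. Of all tested genes, 0.32% were called lower in that fit. H2-DMa and H2-Ob encode chains of the accessory molecules that edit the peptides on class II, and H2-Ob was picked with its values known. Ciita, the transactivator of the class II genes, also singled out, was at 57.0, 6.82 and 51.5 CPM and 4.15, 15.3 and 7.17 CPM (log2 fold change -2.14 with all tumors and -2.61 without tumor 13, adjusted p = 0.120 by edgeR). Ctss, the protease cathepsin S, and the costimulatory gene Cd40, 2 members picked for their contrast with these, had values of 0.22 and 0.31 with all tumors and -0.02 and -0.08 without tumor 13.

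Among genes with lower levels with ADU-S100, those with the smallest p included genes of dendritic cells. Mgl2, a galactose-type lectin of type 2 conventional dendritic cells, was at 8.60, 7.51 and 5.41 CPM with cyto-IL-15 and 1.20, 0.651 and 0.649 CPM with ADU-S100 (log2 fold change -3.13, standard error 0.42, adjusted p = 0.0912 by edgeR), and it had the smallest p of the lower genes at 1 CPM or more. Cd209a, which encodes a mouse relative of DC-SIGN, had 262, 73 and 294 counts in the cyto-IL-15 tumors and 6, 3 and 0 in the ADU-S100 tumors (log2 fold change -6.5, adjusted p = 0.199 by edgeR). Both genes were lower in all 3 ADU-S100 tumors than in any cyto-IL-15 tumor, tumor 13 included, and both were DEGs without it (adjusted p = 0.0139 for Mgl2 and 0.00967 for Cd209a by edgeR). Of 12 tested type 2 genes, 5 had non-overlapping lower levels and 1 higher (against 8.67% and 8.63% of all tested genes), and the median was -1.12. The higher gene was Tnip3, at 4.13, 2.32 and 2.35 CPM and 6.73, 5.40 and 6.96 CPM (log2 fold change 1.09, adjusted p = 0.604 by edgeR). Type 1 conventional dendritic cells, which cross-present tumor antigen, had a median of -0.49 over 12 genes, with 2 non-overlapping lower and 1 higher. Itgae, the integrin CD103, was at 6.83, 1.95 and 5.96 CPM and 1.29, 1.32 and 0.918 CPM, and Flt3, the growth factor receptor of dendritic cells, at 7.17, 1.40 and 5.88 CPM and 1.59, 1.44 and 1.09 CPM. Itgae, Flt3 and Gcsam, a signaling adaptor, fell without tumor 13 (log2 fold changes -2.43, -2.24 and -2.53), and in Flt3 tumor 13 lay among the ADU-S100 tumors. With all 6 tumors edgeR called no type 1 or type 2 gene (1 and 1 higher and 3 and 5 lower at an unadjusted p under 0.05). DESeq2 with all 6 tumors called 2 type 1 genes lower, Itgae and Gcsam, and 3 type 2 genes lower.

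With all 6 tumors edgeR called none of the 14 migratory dendritic cell genes (0 higher and 2 lower at an unadjusted p under 0.05). DESeq2 called Cd83 and Ccl17 lower. The median of these 14 genes was -0.26. Within them Cd83, an activation marker, was at 20.8, 8.27 and 16.1 CPM and 4.17, 6.82 and 3.76 CPM (log2 fold change -1.64, standard error 0.41, adjusted p = 0.463 by edgeR), fell without tumor 13 (log2 fold change -1.90, adjusted p = 0.0258 by edgeR), and its groups did not overlap. Genes of plasmacytoid dendritic cells, the main producers of interferon-α, had a median of 0.15 over 10 genes with all tumors, 6 of them above 0, and -0.37 without tumor 13. Siglech, a lectin of these cells, was at 1.5, 0.0645 and 2.10 CPM and 0.383, 0.369 and 0.369 CPM and fell without tumor 13 (log2 fold change -2.25, adjusted p = 0.0258 by edgeR). Another gene of that list, Bst2 (tetherin), is itself interferon-stimulated and was at 125, 77.0 and 165 CPM and 494, 548 and 584 CPM (log2 fold change 2.12, standard error 0.28, adjusted p = 0.0904 by edgeR). Tumors given HBSS, which are outside the comparison, had 764, 338 and 518 CPM of H2-Aa, 3.40, 1.20 and 2.32 CPM of Cd209a and 7.73, 4.89 and 8.96 CPM of Mgl2.

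**Figure D3:**
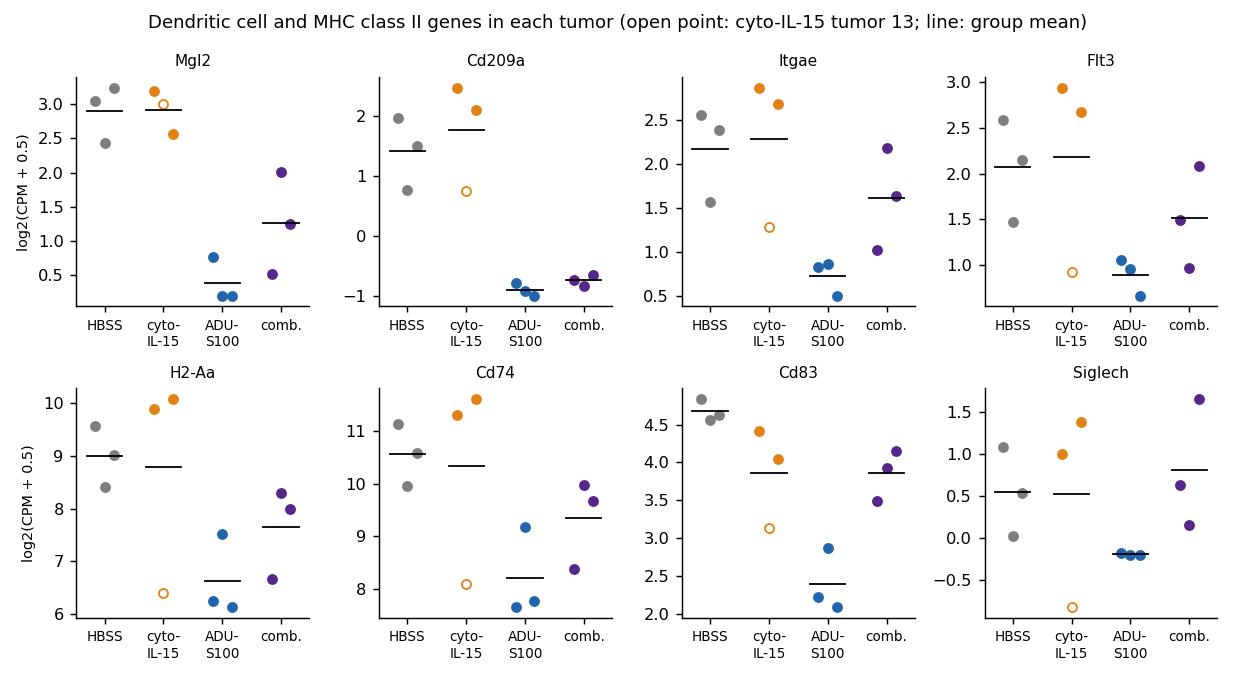
Level of 8 dendritic cell and MHC class II genes in each of the 12 tumors, as log2(CPM + 0.5), by group, with group means as lines and cyto-IL-15 tumor 13 as an open point. For Mgl2, Cd209a, Itgae and Cd83 all 3 ADU-S100 tumors lie below all 3 cyto-IL-15 tumors, and for Flt3, H2-Aa, Cd74 and Siglech tumor 13 lies among or below the ADU-S100 tumors while tumors 9R and 20LL lie above them.

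Lists of recruited myeloid cells had medians above 0, and the monocyte receptor Cd300e rose. Of 25 inflammatory monocyte genes, Cd300e was the DEG, 9 had non-overlapping higher levels (against 8.63% of all tested genes) and the median was 1.06. In this list 18 genes had a log2 fold change above 0 and 7 below, down to -2.02. Its summed level overlapped between the groups, at 9214, 6377 and 4898 CPM and 4165, 5918 and 7782 CPM. Chil3 was at 3.19, 3.85 and 2.33 CPM and 18.5, 30.0 and 36.7 CPM (log2 fold change 3.14, standard error 0.34, adjusted p = 0.0510 by edgeR), Plac8, a small cysteine-rich protein of leukocytes, at 12.2, 25.8 and 26.5 CPM and 115, 146 and 219 CPM (log2 fold change 2.86, standard error 0.38, adjusted p = 0.0912 by edgeR), and both rose without tumor 13. Nos2, the inducible nitric oxide synthase, was at 4.38, 3.97 and 5.40 CPM and 20.9, 34.6 and 99.1 CPM, highest in tumor 22LR (log2 fold change 3.45, adjusted p = 0.195 by edgeR). Neutrophil genes had the highest median of the lists, 1.89 over 21 tested of 29 listed genes, and 12 of them had non-overlapping higher levels, against 8.63% of all tested genes. Retnlg passed the filter on low counts only through the ADU-S100 tumors, and such members can raise the median. The summed level of all 29 genes overlapped between the groups, at 1034, 194 and 810 CPM and 834, 941 and 1105 CPM. Among the tested neutrophil genes edgeR called none (12 higher and 0 lower at an unadjusted p under 0.05) and DESeq2 8 higher. Retnlg, a resistin-like protein of neutrophils, was at 0.0192, 0.0161 and 0.0128 CPM and 0.328, 0.243 and 1.23 CPM, and Lcn2, the iron-scavenging lipocalin, at 0.769, 0.516 and 0.692 CPM and 8.58, 1.94 and 12.3 CPM. S100a9, a subunit of calprotectin picked with its values known, was at 0.50, 2.60 and 0.359 CPM and 4.65, 3.28 and 13.7 CPM. These levels were low, tumor 22LR was the highest in each, and Ly6g, the surface marker that defines neutrophils, had 8 counts over the cyto-IL-15 tumors and 12 over the ADU-S100 tumors. Without tumor 13 the neutrophil median was 2.95 and 3 genes rose, against 0.727% of all tested genes.

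Genes of resident-type macrophages gave a median of -0.63 over 26 genes, with 18 of them below 0 and 8 above, and edgeR called none (1 higher and 3 lower at an unadjusted p under 0.05) and DESeq2 none. Mrc1, the mannose receptor, was at 184, 174 and 317 CPM and 146, 87.0 and 85.2 CPM (log2 fold change -1.10, standard error 0.33, adjusted p = 0.585 by edgeR), and Cbr2, a carbonyl reductase of tissue macrophages, at 9.21, 10.7 and 23.5 CPM and 6.91, 1.86 and 1.42 CPM, each without overlap. In the other direction, Pf4, platelet factor 4, was at 13.7, 43.8 and 32.6 CPM and 122, 39.3 and 96.0 CPM (log2 fold change 1.49, standard error 0.55, adjusted p = 0.615 by edgeR), with overlapping groups. Gpr34, a receptor for lysophosphatidylserine, was at 27.9, 6.63 and 42.4 CPM and 9.64, 9.65 and 8.20 CPM and fell without tumor 13 (log2 fold change -1.92, adjusted p = 0.00580 by edgeR). Genes shared by all macrophages were divided. Lyz2, the macrophage lysozyme, was at 1282, 1404 and 1766 CPM and 752, 666 and 712 CPM (log2 fold change -1.09, standard error 0.18, adjusted p = 0.193 by edgeR), and its paralog Lyz1, which may share reads, at 4.54, 2.52 and 5.63 CPM and 1.60, 0.797 and 1.13 CPM. Both fell without tumor 13, at adjusted p = 0.0377 and 0.0380 by edgeR. Fcgr1, the high-affinity receptor for IgG, was at 58.8, 35.2 and 83.7 CPM and 123, 138 and 193 CPM (log2 fold change 1.33, standard error 0.32, adjusted p = 0.441 by edgeR), and Cd68, a lysosomal protein of macrophages, at 77.0, 83.7 and 118 CPM and 147, 140.4 and 147 CPM, so both had non-overlapping higher levels with ADU-S100. The median of the 16 pan-macrophage genes was 0.29. With all 6 tumors DESeq2 called 1 of them higher (Fcgr1) and 2 lower (Lyz1 and Lyz2).

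The other lower genes with the smallest p were picked by p and not by cell type. Alox5, the lipoxygenase of leukotriene synthesis, was at 7.23, 6.24 and 12.4 CPM and 2.74, 2.01 and 2.14 CPM (log2 fold change -1.93, standard error 0.35, adjusted p = 0.245 by edgeR), and Pltp, the phospholipid transfer protein, at 87.2, 86.8 and 134 CPM and 39.0, 46.7 and 31.4 CPM (log2 fold change -1.42, standard error 0.24, adjusted p = 0.193 by edgeR). Rdh10, which makes retinal on the way to retinoic acid, was at 125, 165 and 115 CPM and 57.6, 48.6 and 65.5 CPM (log2 fold change -1.27, standard error 0.21, adjusted p = 0.183 by edgeR). In these 3 genes tumor 13 was on the side of its own group, and all were DEGs without it. DESeq2 called all 3 lower with all 6 tumors. Values for Fcgr2b, the inhibitory Fc receptor, were -0.97 on the log2 scale (standard error 0.18), for Gpm6a, a membrane glycoprotein best known from neurons, -1.76 (0.33) and for Arhgap19, which acts in cell division, -0.97 (0.19), and none of these passed by edgeR with or without tumor 13, although DESeq2 called Gpm6a with all 6 tumors (adjusted p = 1.97e-05). Cd33, an inhibitory Siglec of myeloid cells, had the smallest p of the genes lower without tumor 13, at 91.6, 27.2 and 105 CPM and 24.3, 34.5 and 23.9 CPM (log2 fold change -1.82 without tumor 13, adjusted p = 0.00541 by edgeR), where tumor 13 itself lay among the ADU-S100 tumors. Of 27 TREM, CD300 and C-type lectin receptors, 9 had non-overlapping higher and 1 lower levels (against 8.63% and 8.67% of all tested genes), and Clec5a, Trem3 and Pilra had log2 fold changes of 1.04, 2.31 and 1.05 with all tumors and rose without tumor 13.

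Genes of lymphocytes, the cells on which interleukin-15 acts, gave no call by edgeR or DESeq2 in the NK, T, and B and plasma cell lists with all 6 tumors. The 32 NK cell genes had a median of -0.12, with 1 gene non-overlapping and lower, and -0.48 without tumor 13, again with none called. At an unadjusted p under 0.05 by edgeR, 0 NK genes were higher and 2 lower, and 0 and 2 T cell genes. The mean level of the NK list was 2.53, 1.40 and 2.79 log2(CPM + 0.5) in the cyto-IL-15 tumors and 2.13, 2.27 and 2.38 in the ADU-S100 tumors, and the cyto-IL-15 tumors spanned the ADU-S100 range. Ncr1, the activating receptor NKp46 that defines NK cells (singled out after its values were seen), was at 10.2, 2.56 and 9.75 CPM and 7.89, 7.40 and 8.70 CPM. Klra6, a Ly49 receptor with many close relatives, was the non-overlapping gene, at 1.29, 2.60 and 2.92 CPM and 0.739, 0.923 and 0.951 CPM (log2 fold change -1.41, standard error 0.40, adjusted p = 0.546 by edgeR). T cell genes had a median of -0.50 over 27 genes, and -0.96 without tumor 13, where Tcf7 and Bcl11b, transcription factors of T cell identity, fell (log2 fold changes -1.34 and -1.48). Cd4 was at 12.4, 6.08 and 10.2 CPM and 2.46, 6.02 and 2.65 CPM (log2 fold change -1.40, standard error 0.45, adjusted p = 0.615 by edgeR), with the groups just apart, and Cd8a, singled out, at 23, 3.01 and 34.5 CPM and 12.3, 21.2 and 14.7 CPM, with tumor 13 below the ADU-S100 tumors and tumors 9R and 20LL above them.

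Granule genes of killer cells had a median above 0, where those of the NK and T cell lists were below 0. Gzmb, granzyme B, was at 12.5, 17.7 and 14.1 CPM with cyto-IL-15 and 38.3, 57.4 and 86.7 CPM with ADU-S100 (log2 fold change 2.00, standard error 0.32, adjusted p = 0.154 by edgeR), so all ADU-S100 tumors were above all cyto-IL-15 tumors, and it rose without tumor 13 (log2 fold change 2.2, adjusted p = 0.0309 by edgeR). Gzmc, which lies beside near-identical granzymes, was at 21.7, 37.7 and 14.6 CPM and 55.6, 61.7 and 108 CPM, and Srgn, the proteoglycan serglycin that packs the granules, at 40.7, 43.2 and 47.7 CPM and 86.2, 87.2 and 115 CPM (log2 fold change 1.10, standard error 0.17, adjusted p = 0.135 by edgeR). For Prf1, perforin, the levels were 20.4, 13.2 and 24 CPM and 21.4, 43.4 and 52.9 CPM (log2 fold change 1.00, adjusted p = 0.615 by edgeR), with tumor 20LL above ADU-S100 tumor 17LL. Gzma, granzyme A, was at 18.6, 9.14 and 44.8 CPM and 35.2, 55.9 and 75.7 CPM (log2 fold change 1.18, adjusted p = 0.616 by edgeR), and its groups overlapped as well. Over the 19 granule genes the median was 0.63 and 5 were non-overlapping and higher, against 8.63% of all tested genes, and edgeR called none (4 higher and 0 lower at an unadjusted p under 0.05) and DESeq2 3 higher. In this list 14 genes had a log2 fold change above 0 and 5 below, down to -3.72. Its summed level overlapped between the groups, at 275, 554 and 316 CPM and 402, 549 and 759 CPM. In HBSS tumors Gzmb was at 2.78, 2.46 and 4.12 CPM and Gzma at 3.03, 1.77 and 2.48 CPM, and in the tumors given both agents at 60.3, 307 and 2313 CPM and 87.5, 374 and 1618 CPM.

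Genes of the interleukin-15 axis had a median of 0.06 over 18 tested members, and edgeR called none (0 higher and 0 lower at an unadjusted p under 0.05) and DESeq2 none. Il15ra, which presents interleukin-15 to its target cells, was at 12.3, 6.5 and 11.8 CPM and 14.6, 14.1 and 13.3 CPM (log2 fold change 0.43, standard error 0.28, adjusted p = 0.655 by edgeR), and Il15 was at 5.33, 1.31 and 6.91 CPM and 9.88, 8.51 and 9.89 CPM (log2 fold change 1.05, standard error 0.56, adjusted p = 0.629 by edgeR). All 3 ADU-S100 tumors were above the cyto-IL-15 tumors in both genes, although the margin to tumor 9R was small for Il15ra. Of the regulatory T cell and checkpoint genes (20 tested, median -0.14), 5 had non-overlapping higher and 5 lower levels, against 8.63% and 8.67% of all tested genes. Tnfrsf9, the costimulatory receptor 4-1BB, was at 26.9, 24.1 and 23 CPM and 46.5, 71.3 and 113 CPM (log2 fold change 1.60, standard error 0.31, adjusted p = 0.272 by edgeR), while Ikzf2, the factor Helios of regulatory T cells, was at 8.42, 16.5 and 8.45 CPM and 2.67, 3.41 and 2.98 CPM and Entpd1, the ectonucleotidase CD39, at 102, 61.1 and 95.3 CPM and 43.7, 51.6 and 49.1 CPM. Ikzf2 and Entpd1 fell without tumor 13 (log2 fold changes -1.47 and -1.02). With all 6 tumors DESeq2 called Tnfrsf9 higher and Ikzf2 lower. B and plasma cell genes had a median of -0.77 and a wide spread inside both groups. None was non-overlapping, against 8.63% higher and 8.67% lower of all tested genes. Jchain, which links antibody polymers, was at 32.4, 0.0806 and 76.9 CPM and 0.369, 10.3 and 1.82 CPM. Without tumor 13, 12 of the 63 lower DEGs were immunoglobulin variable genes, whose reads can be shared between close copies and whose use depends on which B cell clones a tumor holds.

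Of 32 chemokine genes 12 had non-overlapping higher and 2 lower levels (against 8.63% and 8.67% of all tested genes) and the median was 0.63. Without tumor 13, 9 chemokine genes rose, against 0.727% of all tested genes. Ccl7, a monocyte chemokine, was at 39.8, 22.2 and 33.1 CPM and 151, 114 and 198 CPM (log2 fold change 2.26, standard error 0.29, adjusted p = 0.0871 by edgeR), and Ccl11, eotaxin, at 2.00, 1.06 and 1.13 CPM and 8.33, 7.47 and 17.5 CPM (log2 fold change 2.95, standard error 0.47, adjusted p = 0.154 by edgeR). Cxcl10 and Cxcl11, the interferon-induced ligands of CXCR3 on activated T and NK cells, were very low in tumor 13. Cxcl10 was at 109.8, 11.1 and 75.7 CPM and 218, 253 and 254 CPM, and Cxcl11 at 1.90, 0.113 and 0.897 CPM and 9.04, 12.5 and 12.7 CPM. Neither passed with all 6 tumors (adjusted p = 0.615 and 0.447 by edgeR), and both rose without tumor 13 (log2 fold changes 1.39 and 3.04). Ccl17, which recruits CCR4-bearing T cells and is made by dendritic cells, was lower without overlap, at 1.02, 1.29 and 0.564 CPM and 0.315, 0.0972 and 0.201 CPM (log2 fold change -2.26, standard error 0.58, adjusted p = 0.465 by edgeR). Chemokine receptors had a median of -0.46 and edgeR called none (1 higher and 1 lower at an unadjusted p under 0.05) and DESeq2 none.

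A list of inflammatory cytokines and interferons overlapped the chemokines, and 11 of 14 genes were tested, of which edgeR called none (3 higher and 0 lower at an unadjusted p under 0.05) and DESeq2 1 higher with all 6 tumors. Tnf was at 3.40, 1.82 and 3.37 CPM and 9.97, 8.21 and 8.22 CPM (log2 fold change 1.60, standard error 0.33, adjusted p = 0.311 by edgeR) and rose without tumor 13 (log2 fold change 1.39). Ccl2 was at 220.0, 30.6 and 168 CPM and 310.3, 267 and 342 CPM and Cxcl1 at 3.52, 5.85 and 4.26 CPM and 11.2, 6.27 and 9.75 CPM, both non-overlapping and higher. Il6, Ccl5, Il1b, Il10, Csf2 and Il12b had log2 fold changes of 1.38, 0.92, 0.34, 0.75, -0.89 and -0.43, with overlapping groups in each and, for Csf2, a value of 1.45 without tumor 13, and Il12a was too low to be tested with all tumors. Of NF-κB and inflammatory genes, whose median was 0.11 over 27, Saa3, an acute-phase protein, was at 6.35, 2.19 and 6.70 CPM and 86.1, 19.2 and 101 CPM (log2 fold change 3.74, standard error 0.73, adjusted p = 0.272 by edgeR), and each ADU-S100 tumor exceeded all cyto-IL-15 tumors.

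Of 24 endothelial genes 18 were non-overlapping and higher, against 8.63% of all tested genes, with a median of 0.76, and edgeR called none (13 higher and 0 lower at an unadjusted p under 0.05) and DESeq2 3 higher. Without tumor 13 the endothelial median was 0.60, and edgeR called none. Cdh5, the VE-cadherin of endothelial junctions, was at 99.8, 60.7 and 133 CPM and 196, 206 and 241 CPM (log2 fold change 1.11, standard error 0.28, adjusted p = 0.450 by edgeR), and Esm1, a gene of endothelial tip cells, at 4.48, 6.51 and 8.49 CPM and 26.6, 18.9 and 14.6 CPM (log2 fold change 1.60, standard error 0.34, adjusted p = 0.345 by edgeR). In HBSS tumors Cdh5 was at 212, 441 and 142 CPM and Esm1 at 10.7, 44.9 and 13.1 CPM, and the ADU-S100 levels lay within the HBSS range in both genes. Pericyte and smooth muscle genes had a median of 0.44 over 18 genes, fibroblast and matrix genes 0.18 over 27 and genes of leukocyte adhesion on endothelium 0.18 over 13. With all 6 tumors none was called in any by edgeR or DESeq2 (3, 0 and 1 genes higher and 0, 0 and 0 lower at an unadjusted p under 0.05 by edgeR). Without tumor 13 these medians were 0.66, 0.04 and -0.07. In that fit edgeR called 1 pericyte and smooth muscle gene higher and 1 adhesion gene lower (against 0.727% and 0.32% of all tested genes). Of 17 matrix metalloproteinases and related proteases (median 0.30), Mmp8, the collagenase of neutrophils, was at 0.385, 0.983 and 0.115 CPM and 4.10, 3.36 and 16.1 CPM (log2 fold change 3.93, standard error 0.99, adjusted p = 0.463 by edgeR). Complement genes had a median of 0.50, and Cfb, factor B of the alternative pathway, was at 8.12, 3.84 and 10.3 CPM and 15.5, 32.7 and 37.8 CPM, without overlap. C5ar1, the receptor for the chemoattractant C5a, was at 20.2, 37.1 and 24.3 CPM and 74.0, 55.2 and 84.8 CPM and rose without tumor 13 (log2 fold change 1.69).

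Skeletal muscle RNA varied within both groups. The summed level of the muscle fiber list was 1496, 352 and 601 CPM in the cyto-IL-15 tumors and 3126, 906 and 328 CPM in the ADU-S100 tumors. No muscle fiber gene of 28 was non-overlapping (median 1.00), against 8.63% higher and 8.67% lower of all tested genes. Of the muscle regeneration genes, Cdh15, the cadherin of muscle stem cells, was at 0.308, 0.210 and 0.128 CPM and 1.92, 0.651 and 0.683 CPM, non-overlapping but not called (adjusted p = 0.496 by edgeR), in a list with a median of 1.22. Whether muscle RNA took part in the other differences was not tested. Keratinocyte genes summed to 33.8, 116 and 9.73 CPM and 113, 16.5 and 19.4 CPM and were highest in tumors 13 and 17LL, and red blood cell genes summed to 17.2, 6.93 and 16.8 CPM and 9.30, 10.2 and 19.8 CPM. Genes of mast cells, basophils and eosinophils had a median of -0.52 with tumor 13 and 0.65 without it, and Cpa3 and Tpsb2, proteases of mast cells, were at 6.16 and 11.6 CPM in that tumor, above the other 5. Adipocyte genes had a median of 0.64 with all tumors and 0.10 without tumor 13. Scd1, which desaturates fatty acids, was lower without overlap, at 159, 192 and 167 CPM and 109, 103 and 109.8 CPM (log2 fold change -0.72, standard error 0.15, adjusted p = 0.340 by edgeR).

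The medians of growth-related lists moved with tumor 13. Yap1 was at 98.7, 36334 and 97.6 CPM and 119, 121 and 133 CPM, so of these 6 tumors only tumor 13 was high. Outside the comparison, Yap1 was also high in HBSS tumor 22LL (5079 CPM) and in tumor 28LL given both agents (1144 CPM). The log2 fold change of Yap1 went from -6.68 with all tumors to 0.35 without tumor 13 (adjusted p = 0.615 and 0.297 by edgeR). The list of Yap1, Hippo kinases and targets had a median of -0.36 and -0.09 in the same order, and the epithelial list -0.59 and 0.02, where Krt19, a simple-epithelium keratin, was at 0.173, 497 and 0.0897 CPM in the cyto-IL-15 tumors and 0.451, 0.350 and 1.81 CPM in the ADU-S100 tumors. In HBSS tumor 22LL, Krt19 was at 27.1 CPM. Proliferation genes had a median of -0.17 with all tumors and 0.03 without tumor 13. Their highest mean level was in tumor 13, at 6.85 log2(CPM + 0.5), against 6.29 to 6.48 in the other 5 tumors. Bub1, a kinase of the spindle checkpoint, was at 28.0, 77.8 and 31.7 CPM and 22.6, 25.7 and 26.8 CPM. Hypoxia and glycolysis genes had a median of 0.27 with all tumors and 0.62 without tumor 13, and Adm, the vasodilator adrenomedullin, was at 7.19, 1.32 and 7.32 CPM and 17.6, 20.4 and 38.1 CPM (log2 fold change 2.24, standard error 0.65, adjusted p = 0.559 by edgeR).

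Several stress and arrest genes passed edgeR's test once tumor 13 was left out. Cdkn1a, whose product p21 halts the cell cycle, was at 14.6, 36.4 and 16 CPM and 80.8, 83.6 and 106 CPM (log2 fold change 1.97, standard error 0.39, adjusted p = 0.290 by edgeR), and without tumor 13 its log2 fold change was 2.57 (adjusted p = 0.00143 by edgeR). The 17 p53 target genes as a list had a median of 0.12. Ddit3, the stress factor CHOP, was at 20.3, 32.9 and 20.6 CPM and 56.9, 87.2 and 73.2 CPM, and Hmox1, heme oxygenase 1, at 42.2, 92.8 and 62.6 CPM and 232, 200.1 and 371 CPM. Both had non-overlapping levels and rose without tumor 13 (log2 fold changes 1.83 and 2.37), in a stress list whose median was 0.21 over 16 genes. Ch25h, which makes 25-hydroxycholesterol, an antiviral oxysterol, was at 4.87, 13.4 and 6.14 CPM and 35.3, 32.6 and 30.9 CPM (log2 fold change 2.59 without tumor 13, adjusted p = 0.00150 by edgeR), in a list of myeloid effector enzymes with a median of 0.30. The 34 cell death genes had a median of 0.37, with Xaf1 the DEG and 15 non-overlapping and higher (against 8.63% of all tested genes), among them Casp4, the caspase that senses lipopolysaccharide and drives pyroptosis, at 21.7, 7.46 and 19.2 CPM and 42.7, 36.6 and 48.2 CPM. Hist1h2bc, a polyadenylated histone gene, and AA467197, a gene known as Nmes1, were among the 10 higher genes with the smallest p without tumor 13, at 6.33, 46.4 and 6.45 CPM and 26.1, 30.4 and 30.2 CPM for the first and 4.52, 11 and 4.85 CPM and 25.9, 24.3 and 32.1 CPM for the second. Tumor 13 was above all ADU-S100 tumors in Hist1h2bc and below them in AA467197.

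**Figure D4:**
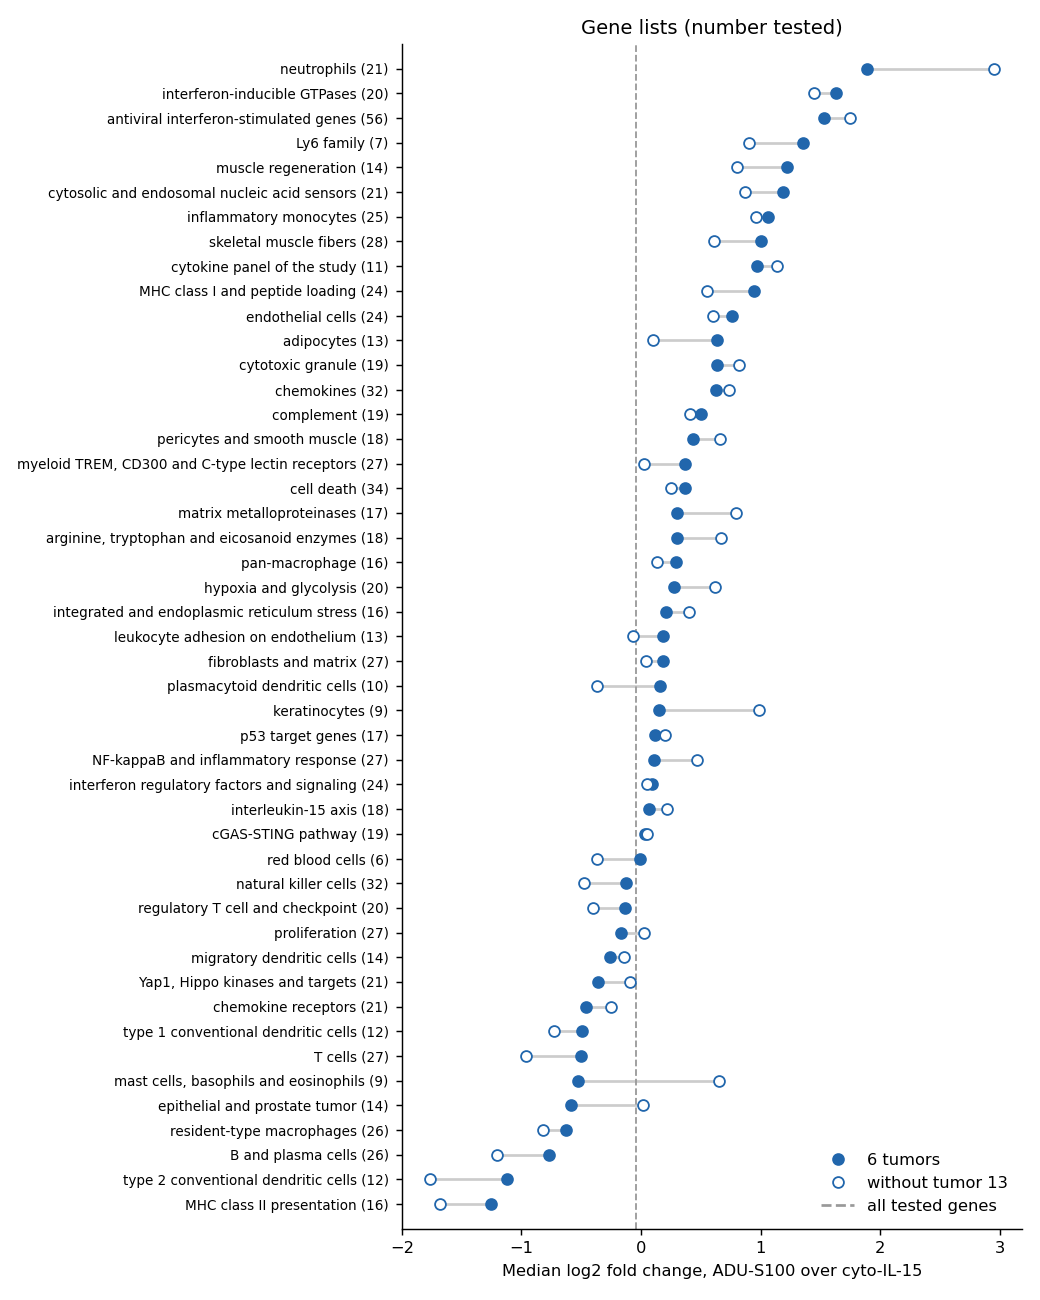
Median log2 fold change (ADU-S100 over cyto-IL-15) of each gene list with at least 5 tested genes, with all 6 tumors (filled points) and without cyto-IL-15 tumor 13 (open points), with the number tested in parentheses and the median of all tested genes as a dashed line at -0.04. Neutrophil, GTPase and antiviral lists have the highest medians with all tumors (1.89, 1.63 and 1.53) and MHC class II the lowest (-1.26).

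How tumor 13 itself lay for genes called without it differed by direction. Of the 143 higher DEGs of that fit, tumor 13 was below all 3 ADU-S100 tumors in 122 (85.3%), against 43.2% of all genes tested there. Of the 63 lower DEGs it was above all 3 ADU-S100 tumors in 20 (31.7%), against 35.0% of all genes, and below all of them in 24. All 3 cyto-IL-15 tumors were on the same side of the ADU-S100 tumors in 50 of 56 antiviral genes, in Mgl2, Cd209a, Itgae, Cd83 and Lyz2, but in none of the 16 MHC class II genes, whose lower levels without tumor 13 rested on tumors 9R and 20LL. Of all tested genes, 8.63% were non-overlapping and higher and 8.67% lower. By list, tumors 9R and 20LL were above tumor 13 in MHC class II genes (5.83, 3.95 and 6.03 log2(CPM + 0.5) in the order given, against 4.12, 4.89 and 4.23 in the ADU-S100 tumors) and T cell genes (3.46, 1.26 and 3.57 against 2.36, 2.94 and 2.64). HBSS tumors had mean levels of 5.78, 5.09 and 5.46 for MHC class II and 2.42, 1.75 and 2.14 for T cell genes, and the tumors given both agents 4.40, 5.28 and 5.63 and 2.60, 3.73 and 4.47. For the antiviral list the HBSS tumors had 4.64, 4.28 and 4.59 and the tumors given both agents 5.13, 5.68 and 7.0.

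**Figure D5:**
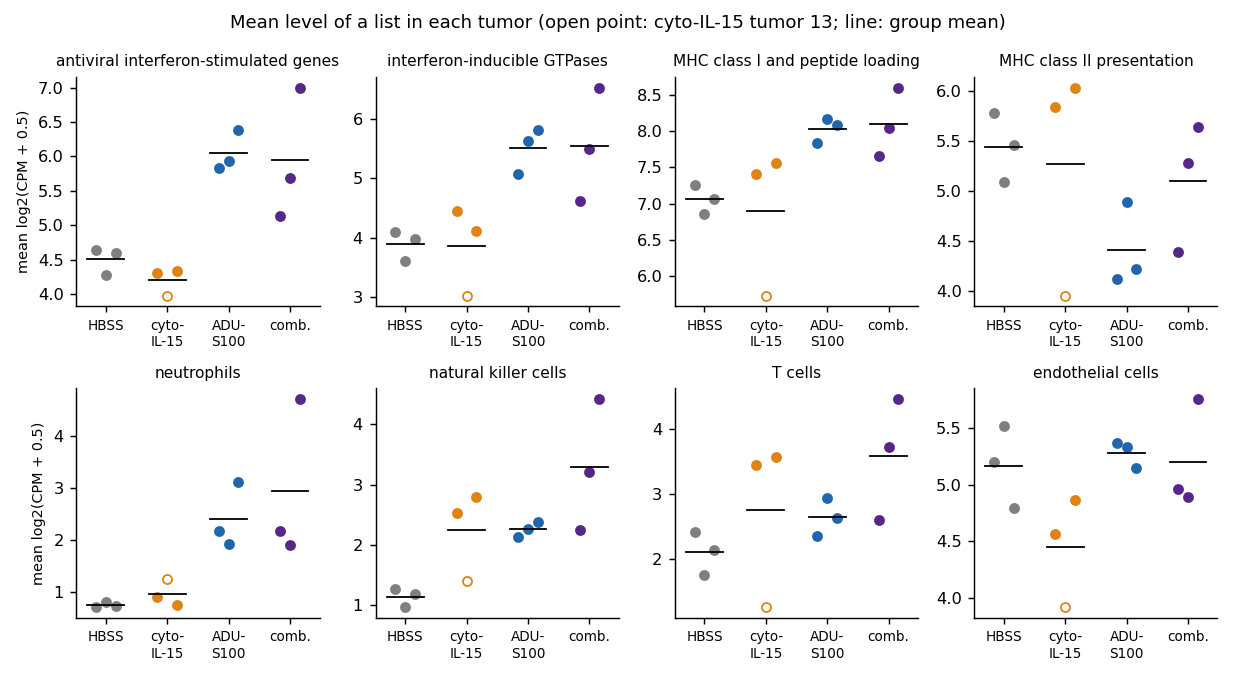
Mean level of 8 gene lists in each of the 12 tumors, as the mean of log2(CPM + 0.5) over the tested genes, by group, with group means as lines and cyto-IL-15 tumor 13 as an open point. The antiviral list runs from 3.97 to 4.33 with cyto-IL-15 and from 5.83 to 6.38 with ADU-S100, while MHC class II is high in 2 of the 3 cyto-IL-15 tumors.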

How the data were processed

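RNA sequencing counts of 12 tumors were used, 1 file for each, and 6 of these tumors entered the comparison. Per the labels and the file headers, the authors prepared NEBNext Ultra II libraries from total RNA and deposited raw read counts per Ensembl gene. The submitters' processing notes name STAR 2.5.2b, the counter featureCounts (Subread 1.5.2), Trimmomatic 0.36, bcl2fastq 2.20 and DESeq2, with the builds GRCm38 and mm10. The strand setting and the treatment of reads with several matches were not given in the sources used here, so values of overlapping, antisense or near-identical genes are uncertain.

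Counts were tested with edgeR 4.0.16 (TMM normalization, filterByExpr with a minimum count of 10 and a minimum total of 15, robust quasi-likelihood F-test) with Benjamini-Hochberg adjusted p-values over all tested genes. A DEG had an adjusted p under 0.05 and a log2 fold change above 1 or below -1, positive when higher with ADU-S100. Standard errors are the absolute log2 fold change over the square root of F. DESeq2 1.42.0 and limma 3.58.1 were alternatives, and the procedure was tested on simulated data. Levels are CPM with TMM factors over the 12 tumors, and list levels are means of log2(CPM + 0.5). Groups do not overlap when all 3 tumors of one are above all 3 of the other. Promoter windows came from RefSeq (GRCm38.p6).

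The comparison, its tests and its 49 gene lists were chosen with earlier results of these data known. Genes named are the DEGs, the 10 lower genes with the smallest p at a mean of 1 CPM or more, up to 4 genes per list by p, genes the published work names, Yap1, and the 10 higher and 10 lower DEGs with the smallest p without tumor 13. Markers of the tumor type (Krt18, Pbsn, Vim), Ly6g, Tmem173, Ifitm1, H2-Ob, Ciita, Ctss, Cd40, Ncr1, Cd8a and S100a9 were added with their values known. Of the distinct list genes in the files, 955 in number, 879 were tested.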

Additional observations from a re-analysis of the deposited data

How the results depend on the processing

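The number of DEGs, 16 in the 6-tumor edgeR fit, depended on the procedure and on tumor 13. DESeq2 called 267 (208 higher and 59 lower), voom with weighted tumors 183 (140 and 43), and a fit with no filter on low counts 73 (70 and 3). RLE size factors gave 6, library totals alone 4 and 12 tumors in one fit 4, all higher. Dropping the threshold on the fold change left 16. With each tumor left out in turn the count ran from 0 to 206 (0 to 143 higher, 0 to 63 lower), where 206 was the count without tumor 13 and 0 that without any of the others. With each tumor left out in turn, the log2 fold change ranged from -0.0762 to 0.60 for Cd40, -1.39 to 1.45 for Csf2, -0.0237 to 0.53 for Ctss, -1.70 to 1.48 for Ifitm1, -2.00 to 4.48 for Prl2c3 and -7.26 to 0.35 for Yap1, and in each of these the sign turned without tumor 13. Tmem173 ranged from -0.0601 without tumor 18R to 0.0807 without tumor 22LR, and its sign also turned without tumor 9R. These were the reversals among the 103 genes whose log2 fold change was recomputed, which leaves out genes given in the report by their levels alone. Of those, Krt19, Cpa3, Tpsb2 and Ncr1 turned without tumor 13 (2.75, 1.02, 0.65 and -0.31), and Cd8a turned without tumor 20LL. The causes were not tested. No paired analysis was possible because the groups share no replicate numbers. With 3 tumors per group and the spread given in the report, differences in single genes of the MHC class II, NK cell and T cell lists did not pass edgeR's test with all 6 tumors (DESeq2 called 3 MHC class II genes lower), which does not show that the groups were alike, and few counts limit the values of Ifnb1, Ly6g, Cd209a and Cd300e.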
